A study of Mus musculus with 4 samples.

Results

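The cells described here are the germinal center T follicular helper (GC-TFH) cells of a droplet-based scRNA-seq data set of T cells from the mouse small intestine, that is, the cells to which the deposited table gives the cluster name GC-TFH. They number 780 of 5080 cells, with 318 among the 2975 cells labelled TGFβR-KO, 199 among the 1007 labelled TGFβR-WT and 263 among the 1098 labelled TGFβR-CA. The study asked how TGFβ signalling shapes the fate of intestinal TH17 cells in 7- to 8-month-old mice of the strain labelled Il-17a-CRE, of either sex and on a C57BL/6 background. In all groups Cre was expressed from the *Il17a* locus and switched on a YFP reporter in *Rosa26*, so the YFP+CD4+ T cells, which were isolated by sorting from small intestinal tissue, were cells that had expressed *Il17a* at some time, whether or not they still did. TGFβR-KO mice also carried floxed *Tgfbr2* and lost the TGFβ receptor in these cells, TGFβR-CA mice carried a constitutively active *Tgfbr1* behind a floxed stop cassette, and TGFβR-WT littermates carried no floxed receptor allele. The 4 samples listed, each a pool of mice, comprise 2 of TGFβR-WT and 1 each of the other genotypes, with TGFβR-KO and TGFβR-WT in the first sequencing batch and TGFβR-CA and TGFβR-WT in the second.

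T follicular helper cells are CD4 T cells that move into B cell follicles, and those that enter germinal centers provide the signals with which B cells are selected, switch class and mature in affinity. Their program is headed by the repressor BCL6, which is opposed by BLIMP-1 (*Prdm1*). They follow CXCL13 through CXCR5, are held near B cells by costimulatory receptors and SLAM adaptors, and help through IL-21, IL-4 and CD40 ligand. In the gut, Peyer's patches hold germinal centers at all times, and TH17 cells are known to be able to take up a TFH program there.

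The level of a gene is given below as its SCTransform-corrected UMIs (unique molecular identifiers, the count of captured RNA molecules) per 10000 such UMIs, taken over all cells of a group together. GC-TFH cells were compared with all other cells of the same condition and, separately, with TR-TFH cells, the other TFH cluster (519, 460 and 556 cells). A gene was called higher or lower when this ratio was at least 1.5 in the same direction in all 3 conditions. Triplets of values are in the order TGFβR-KO, TGFβR-WT, TGFβR-CA. Because the clusters were formed on these same genes, and because cells of a sample are not replicates, all of these comparisons are descriptions without a test. The other cells were not alike in the 3 conditions, since TR-TFH cells were 19.5%, 56.9% and 66.6% of them. With every other cluster of at least 20 cells given equal weight, 203 of the 287 genes called higher and 229 of the 255 called lower below were still called.

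Libraries stood apart in ways that bear on the conditions. Nothing ties single TGFβR-WT cells to either of the 2 samples, but the suffixes of their names part them into a larger set of 709 cells and a smaller set of 298, with 141 and 58 GC-TFH cells, and results are also given for these 2 sets. Values for the 4 sets follow the order TGFβR-KO, larger set, smaller set, TGFβR-CA. In GC-TFH cells the level of *Tgfbr1* was 0.244 in TGFβR-KO, 0.475 in the larger TGFβR-WT set, 3.1 in the smaller set and 0.635 in TGFβR-CA, so cells labelled TGFβR-CA did not have the highest level of the receptor gene they carry in active form, and conditions are named here by the labels of the cells. *Xist*, the RNA of the inactive X chromosome, had no UMI in GC-TFH cells of TGFβR-KO or of the larger TGFβR-WT set, against a level of 9.48 in the smaller set and 4.29 in TGFβR-CA. The libraries thus differed in the sex of their mice, and library cannot be told apart from condition. Of 16 barcodes that occur in more than 1 set, 14 linked the larger TGFβR-WT set with TGFβR-KO, and 2 of the 32 cells with such a barcode are GC-TFH cells. Corrected totals, which the correction brings together and which do not show the original depth, had a median in GC-TFH cells and in all other cells of 3826.5 against 3791 in TGFβR-KO, 3728 against 3640.5 in TGFβR-WT and 4092 against 3882 in TGFβR-CA. The median number of genes was somewhat higher in GC-TFH cells, at 1567.5 against 1479, 1622 against 1506 and 1700 against 1516.

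The share of GC-TFH cells was lowest in TGFβR-KO, at 10.7% (exact Clopper-Pearson 95% interval 9.60 to 11.9). It was 19.8% (17.3 to 22.4) in TGFβR-WT, where the larger set had 19.9% and the smaller 19.5%, and 24% (21.5 to 26.6) in TGFβR-CA. These intervals cover counting error only and say nothing of the spread between mice, and with 1 sample of TGFβR-KO and 1 of TGFβR-CA no test between conditions was possible. TR-TFH cells also had their lowest share in TGFβR-KO, with 519 of 2975 cells against 460 of 1007 and 556 of 1098. A share depends on the numbers of cells in all other clusters.

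The 4 markers below are among the genes by which the study named this cluster. Their levels describe the cluster and do not check its name. *Cxcr5*, the receptor for the follicular chemokine CXCL13 (chromosome 9, 44511787 to 44561877, GRCm38, minus strand), had a level of 1.64 in GC-TFH cells of TGFβR-KO, 2.49 and 2.90 in the larger and smaller TGFβR-WT sets and 2.40 in TGFβR-CA. All other cells had 0.141, 0.555, 0.762 and 0.827. *Bcl6* (chromosome 16, 23965052 to 23988852, minus strand), the transcriptional repressor that sets up the TFH program, stood at 1.85, 2.59, 1.45 and 1.89 in GC-TFH cells against 0.238, 0.540, 0.371 and 0.525. *Pdcd1* (chromosome 1, 94038305 to 94052553, minus strand), which encodes the inhibitory receptor PD-1, stood at 4.42, 4.57, 5.67 and 6.95 against 0.383, 0.829, 1.30 and 1.77. *Tnfrsf4* (chromosome 4, 156013843 to 156016612, plus strand), which encodes the costimulatory receptor OX40, stood at 4.67, 4.06, 2.81 and 3.98 against 1.28, 1.29, 0.875 and 1.31. Each of the 4 genes was at least 1.5 times higher in GC-TFH cells in all 4 sets, as were 184 of 7490 genes tested (2.46%). Each was also higher than in TR-TFH cells in all 4 sets.

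The markers were found in many but not in all GC-TFH cells. A UMI of *Cxcr5* was present in 39.3%, 49.7% and 56.3% of GC-TFH cells, in 19.1%, 28.7% and 33.6% of TR-TFH cells, and in 0.982%, 3.74% and 5.02% of the cells of the remaining clusters, where the original depth of the cells is not known. *Bcl6* was found in 40.6%, 46.2% and 45.2% of GC-TFH cells and in 5.14%, 7.47% and 5.02% of those outside both TFH clusters. From the cells outside both TFH clusters, *Tnfrsf4* set GC-TFH cells apart least, with 43.1%, 47.7% and 50.2% against 26.8%, 25.9% and 32.3%. Its level relative to TR-TFH cells was the largest of the 4 markers, at 6.52, 3.88 and 3.58 times. At least 2 of the 4 markers were found in 56.6% (51.0 to 62.1), 68.8% (61.9 to 75.2) and 78.7% (73.3 to 83.5) of GC-TFH cells. The same was seen in 17.7%, 28.3% and 39.0% of TR-TFH cells and in 5.38%, 10.1% and 13.3% of the remaining cells. None of the 4 markers was found in 25 of 318, 10 of 199 and 11 of 263 GC-TFH cells. The general T cell genes were found in most of them, *Cd3e* in 93.4%, 97.5% and 97.7% and *Cd4* in 72.0%, 73.9% and 77.2%.

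**Figure D1:**
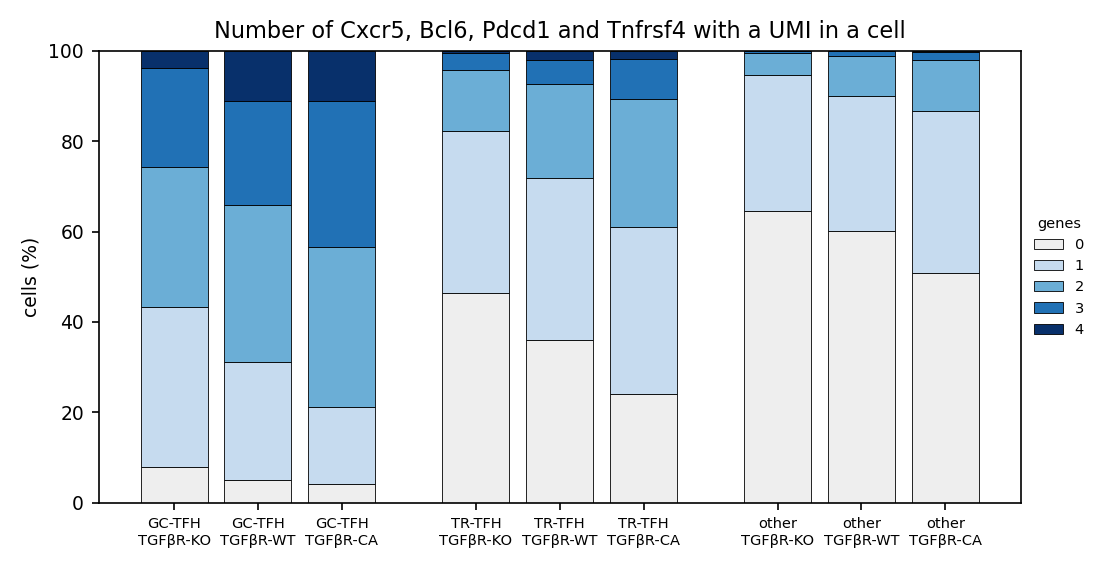
Share of cells (percent) in which 0, 1, 2, 3 or 4 of the markers Cxcr5, Bcl6, Pdcd1 and Tnfrsf4 had a corrected UMI, as stacked bars for GC-TFH cells, TR-TFH cells and the cells of the remaining clusters in each condition. At least 2 markers were found in 56.6% to 78.7% of GC-TFH cells, in 17.7% to 39.0% of TR-TFH cells and in 5.38% to 13.3% of the remaining cells.

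Of 7490 genes with at least 200 corrected UMIs over the table, 287 (3.83%) were higher and 255 (3.4%) lower in GC-TFH cells than in all other cells in all 3 conditions. With the TGFβR-WT sets taken apart, 184 (2.46%) were higher and 190 (2.54%) lower in all 4 sets. In 1 condition alone, 15.8%, 12.3% and 12.8% of genes were higher and 10.2%, 10.4% and 8.26% lower. The counts for single lists of genes below are to be read against these shares of all genes, and the lists were drawn up with earlier results of these data known. The plot of ratios for TFH genes shows the values of 25 of these genes.

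**Figure D2:**
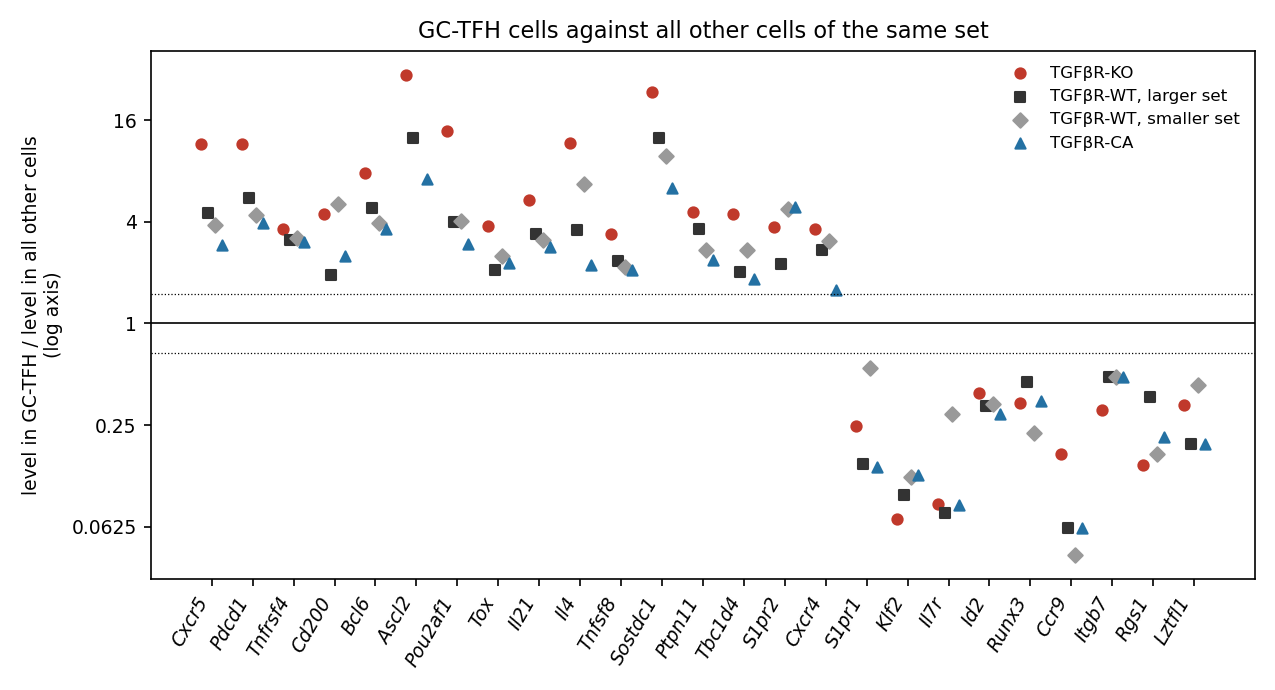
Ratio of the level in GC-TFH cells to the level in all other cells (log axis) for 25 genes, with a point for TGFβR-KO, for the larger and smaller TGFβR-WT sets and for TGFβR-CA, and dotted lines at a ratio of 1.5 and its inverse. The genes of follicular helper cells drawn are ones called higher, from Cxcr5 with ratios of 2.90 to 11.6 to Sostdc1 with 6.30 to 23.5. Listed TFH genes that were not called, such as Icos and Maf, are not drawn. Il7r, Klf2, Ccr9 and Rgs1 lie below the lower line. Ascl2 has no point for the smaller TGFβR-WT set, where the other cells had no UMI.

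Among TFH receptors and costimulatory molecules, 7 of 15 tested genes were higher and 0 lower, with a median log2 ratio of 0.53 against 0.08 over all genes. Besides *Cxcr5*, *Pdcd1* and *Tnfrsf4*, these were *Cd200*, a ligand that dampens myeloid cells (ratios 4.44, 2.31 and 2.50), *Tigit*, a receptor for nectin-like ligands (2.27, 1.82 and 1.52), and both chains of the IL-6 receptor, *Il6ra* (5.34, 1.87 and 2.11) and *Il6st* (3.92, 2.09 and 2.79). IL-6 is among the cytokines that start the TFH program. Neither chain was called against TR-TFH cells. *Icos*, the costimulatory receptor that TFH cells need to persist, was not called, with levels of 3.91, 7.97 and 7.69 in GC-TFH cells against 3.64, 5.58 and 5.88 in the others. *Cd28*, *Cd84*, *Ly9* and *Il21r* were not called either, and *Slamf6*, a SLAM family receptor, was lower than in TR-TFH cells by 1.82-fold, 2.17-fold and 1.53-fold.

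Transcription factors of TFH cells were higher for 5 of 15 tested genes and lower for 0, with a median log2 ratio of 0.48. *Ascl2*, which can switch on *Cxcr5*, stood at 0.666, 0.436, 0.455 and 0.672 in the 4 sets, while the other cells had 0.0224, 0.0350, 0 and 0.0936. It was rare outside the cluster in every set. *Pou2af1*, better known as a B cell coactivator and also used by TFH cells, had ratios of 13.7, 3.98 and 2.97. *Tox*, an HMG-box factor shared by TFH and exhausted T cells, had ratios of 3.75, 2.18 and 2.29, and *Batf*, an AP-1 factor needed by both TFH and TH17 cells, had 2.11, 2.01 and 1.69. Not every factor of the program differed: *Maf*, which drives *Il21*, had ratios of 1.56, 1.16 and 1.05, *Tox2* of 3.70, 1.68 and 1.23, and *Tcf7* was not called. *Irf4*, a factor induced by antigen receptor signals, was higher than in TR-TFH cells by 9.52, 4.88 and 2.25 times and *Lef1*, a factor of early TFH cells, was lower than there by 1.98-fold, 2.02-fold and 1.64-fold.

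Helper signals were higher for 6 of 7 tested genes, with a median log2 ratio of 1.35. *Il21*, the cytokine that supports germinal center B cells, had a level of 1.57, 2.77, 1.61 and 2.16 in the 4 sets against 0.291, 0.824, 0.515 and 0.758 in the other cells. *Il4*, which directs class switching, was scarcer, with 0.365, 0.535, 0.207 and 0.504 against 0.0312, 0.150, 0.0309 and 0.226. Both were higher in GC-TFH cells in every set, though the GC-TFH level of *Il4* in the smaller TGFβR-WT set, from 58 cells, was below that of the other cells of TGFβR-CA. A UMI of *Il21* was found in 34.3%, 41.7% and 38.0% of GC-TFH cells, in 6.94%, 18.7% and 18.0% of TR-TFH cells and in 6.64%, 11.2% and 14.7% of the remaining cells. A UMI of *Il4* was found in 10.4%, 10.1% and 12.9%, against 0.0935%, 1.15% and 2.15% outside both TFH clusters. *Tnfsf8*, which encodes CD30 ligand, had ratios of 3.38, 2.30 and 2.07, and *Angptl2*, a secreted glycoprotein, 13.5, 3.50 and 4.34.

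*Sostdc1*, a secreted antagonist of WNT and BMP signals that TFH cells make, had the largest ratios among helper signals, with levels of 2.40, 4.91, 5.88 and 5.79 in the 4 sets against 0.102, 0.390, 0.597 and 0.918 in the other cells. It was called higher in all 4 sets, as were 184 of 7490 genes (2.46%). *Penk*, the precursor of enkephalin peptides, was called as well (4.99, 6.89 and 1.97), but in TGFβR-WT 165 of its 218 UMIs came from 1 cell, without which its level there was 0.714 in place of 2.92. *Cd40lg*, the ligand that licenses B cells, was not called (0.917, 1.16 and 1.54). *Il10*, *Lif* and *Ebi3* had too few UMIs in the table to be tested.

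Adaptors and other genes reported for TFH cells were higher for 6 of 14 tested, and none was lower. *Tbc1d4*, a regulator of vesicle traffic, had ratios of 4.46, 2.21 and 1.84, *Ptpn11*, the phosphatase SHP-2 that works downstream of PD-1, had 4.57, 3.22 and 2.37, and *Trim8*, a ubiquitin ligase, had 3.24, 1.90 and 1.85. *Ppp1r14b*, an inhibitor of a protein phosphatase, stood at 5.33, 5.29, 4.01 and 5.25 in the 4 sets against 1.08, 1.18, 1.33 and 1.12, a level close to the same in every set. *Rgs16* (16.3, 16.2 and 12.9) encodes a protein that shortens signals of chemokine receptors, and *Marcksl1* (9.07, 6.6 and 5.52) a membrane-bound actin regulator. *Rgs10*, of the same family as *Rgs16*, was not called (2.68, 1.46 and 1.46), and *Sh2d1a*, which encodes the SLAM adaptor SAP, had 39 UMIs in the whole table and was not tested.

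Genes that place cells in the follicle and genes that let them leave went opposite ways, with 3 of 11 higher and 4 lower (median log2 ratio -0.51). *S1pr2*, a receptor that keeps cells in germinal centers, stood at 0.414, 0.436, 0.538 and 0.793 in the 4 sets against 0.111, 0.195, 0.113 and 0.163. *Cxcr4*, which draws cells to the dark zone, had ratios of 3.62, 2.86 and 1.58, and was not called against TR-TFH cells. On the other side stood *S1pr1*, the receptor for exit into lymph, which was lower by 4.07-fold, 4.81-fold and 7.08-fold, *Ccr7*, the receptor for the T cell zone (1.56-fold, 1.70-fold and 4.02-fold), and *Selplg*, a ligand for selectins (4.43-fold, 3.29-fold and 3.09-fold). *Klf2*, which drives *S1pr1*, had a level of 0.503, 0.218, 0.166 and 0.140 in GC-TFH cells against 7.22, 2.25, 1.34 and 1.10 in the others, and was lower than in TR-TFH cells too (3.47-fold, 3.21-fold and 2.91-fold). *Gpr183*, the EBI2 receptor that holds cells at the follicle's edge, was lower than in TR-TFH cells by 2.26-fold, 3.08-fold and 3.09-fold, and against all other cells was not called (1.22-fold, 2.47-fold and 2.85-fold).

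Antagonists of TFH differentiation were lower than in all other cells for 7 of 14 tested genes and higher for 1, with a median log2 ratio of -1.09. Against TR-TFH cells 4 were lower and 4 higher, with a median log2 ratio of -0.26. The list shares *Klf2*, *S1pr1*, *Selplg* and *Gpr183* with the list of follicle positioning and exit. *Il7r*, the receptor for IL-7, headed, with *Klf2*, the ranking of tested genes by the ratio nearest to 1 of the 3 conditions, though in single conditions other genes were lower. Its level was 0.674, 0.574, 1.32 and 0.336 in the 4 sets of GC-TFH cells against 7.87, 7.65, 4.57 and 3.97 in the other cells and 5.42, 7.45, 5.87 and 4.50 in TR-TFH cells, so it parted GC-TFH cells from both. *Id2*, which blocks E proteins, was lower by 2.58-fold, 3.05-fold and 3.45-fold, and *Runx3*, a factor of cytotoxic and resident cells, by 2.94-fold, 2.80-fold and 2.87-fold. *Prdm1* stood at 0.227, 0.0268 and 0.0933 against 0.419, 0.340 and 0.263. *Id2*, *Runx3*, *Prdm1* and *Selplg* were not called against TR-TFH cells. The gene that was higher than in all other cells was *Il2rb*, a chain of the receptors for IL-2 and IL-15 (1.57, 1.66 and 1.69). *Tbx21*, the TH1 factor T-bet, and *Zeb2*, a repressor, were higher than in TR-TFH cells only, by 4.0, 6.66 and 9.18 times and by 4.31, 3.88 and 4.08 times. *Il2ra*, another chain of the IL-2 receptor, had the same calls.

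Against TR-TFH cells, 454 of 7490 genes (6.06%) were higher and 111 (1.48%) lower in GC-TFH cells in all 3 conditions. In all 4 sets these were 286 (3.82%) and 70 (0.935%). Of the 255 genes lower than in all other cells, 176 had neither call against TR-TFH cells, 69 were lower and 10 higher than there. The 2 comparisons share the GC-TFH level. Higher than in TR-TFH cells were 5 of 15 TFH receptors, 6 of 15 transcription factors, 6 of 7 helper signals and 7 of 14 adaptors, with *Sostdc1* by 9.27, 6.82 and 5.06 times, *Pdcd1* by 5.46, 3.68 and 3.1, *Bcl6* by 3.31, 3.26 and 2.62 and *Cxcr5* by 2.66, 2.57 and 2.03. The 10 genes with the highest ratios included *Nr4a1*, *Il1r2* and *Areg*. *Nr4a1*, an orphan receptor induced quickly by antigen receptor signals, stood at 0.739, 1.22 and 1.18 against 0.0570, 0.0362 and 0.0503 (13.0, 33.7 and 23.4 times), *Il1r2*, the decoy receptor for IL-1, was 24.5, 13.2 and 7.84 times higher, and *Areg*, an epidermal growth factor family ligand, 10.6, 22.2 and 6.23 times. The 10 genes with the lowest ratios to TR-TFH cells began with *Il7r* and included *Scml4* (4.58-fold, 3.75-fold and 6.86-fold lower), *Prss12*, a serine protease (3.29-fold, 4.81-fold and 11.3-fold), and *Rflnb*, a filamin regulator (2.79-fold, 4.14-fold and 2.85-fold).

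**Figure D3:**
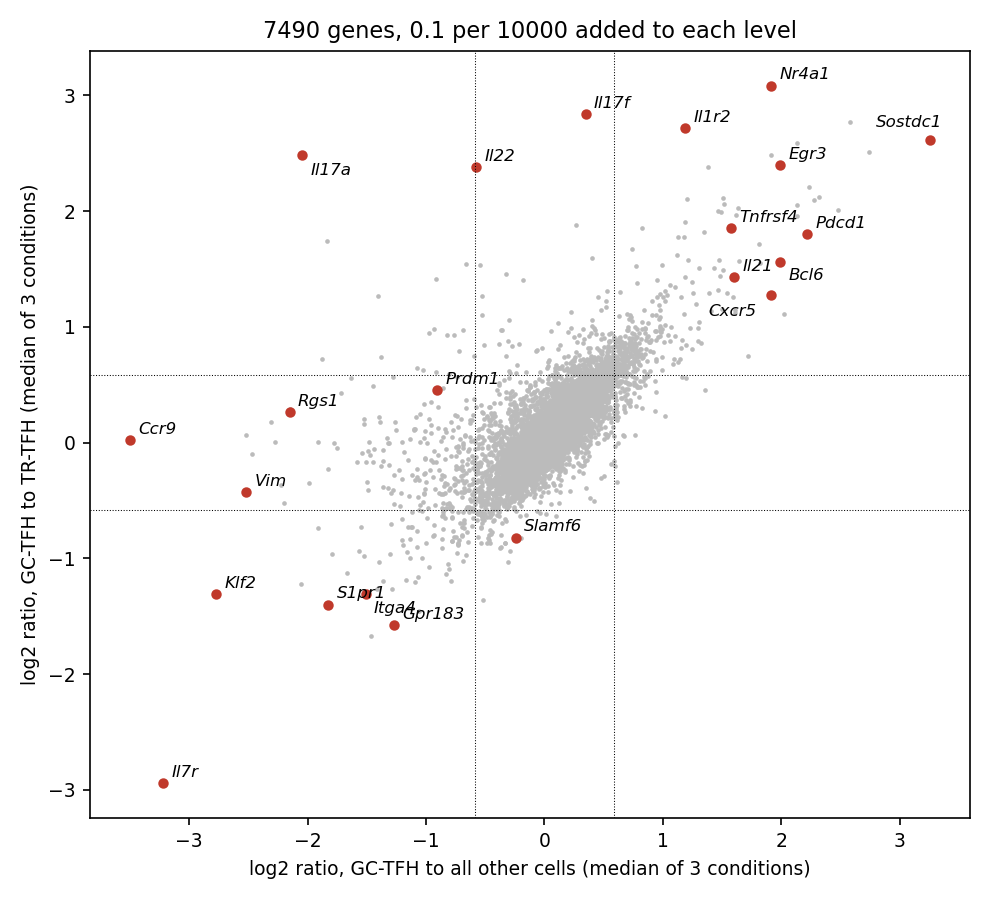
Log2 ratio of GC-TFH cells to TR-TFH cells (y axis) against the log2 ratio of GC-TFH cells to all other cells (x axis) for 7490 genes, each the median of 3 conditions after 0.1 per 10000 was added. Both ratios share the GC-TFH level and TR-TFH cells are among all other cells, so the points lie along the diagonal in part for that reason. Sostdc1 and Pdcd1 lie high on both axes and Il7r low on both, whereas Il17f and Il22 are high only against TR-TFH cells and Ccr9 is low only against all other cells.

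All of these cells had expressed *Il17a* at some time. Of 12 tested TH17 identity genes, 0 were higher and 3 lower than in all other cells, *Rora* (ratios 0.244, 0.556 and 0.456), which helps set the TH17 program, *Tmem176b*, an ion channel (0.493, 0.627 and 0.588), and *Il17re*, a receptor chain for IL-17C (0.287, 0.200 and 0.144). Against TR-TFH cells 5 were higher and none lower. *Ahr*, a sensor of ligands from diet and microbes, was 2.74, 2.34 and 2.04 times higher than there.

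The TH17 cytokine genes were carried by few GC-TFH cells. *Il17a* was found in 7.86%, 6.53% and 3.42% of GC-TFH cells, in 1.93%, 1.74% and 1.08% of TR-TFH cells and in 8.28%, 35.9% and 41.9% of the remaining cells. Its level was 1.59, 0.402 and 0.616 in GC-TFH cells against 0.0519, 0.0664 and 0.0275 in TR-TFH cells, but 78 of its 196 UMIs in TGFβR-KO came from 1 cell, and the ratios to TR-TFH cells were 30.7, 6.05 and 22.4 with and 18.5, 4.46 and 12.6 without the cell with most UMIs in each condition. *Il17f* had 172 of 292 UMIs in 1 cell of TGFβR-KO, and its ratios were 114, 24.4 and 40.8 with and 47.1, 15.6 and 27.7 without the highest cells. *Il22*, which acts on epithelium, was found in 15.1%, 11.6% and 4.18% of GC-TFH cells and in 5.97%, 6.74% and 1.08% of TR-TFH cells. Its ratios to TR-TFH cells of 17.4, 5.36 and 18.4 became 2.61 in TGFβR-WT and 7.60 in TGFβR-CA without the highest cells, which held 45 of 87 and 37 of 63 UMIs.

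Gut homing and residency genes gave the largest group of lower genes, with 10 of 14 tested lower, 0 higher and a median log2 ratio of -1.17. Against TR-TFH cells 1 was lower and 3 were higher, with a median log2 ratio of 0.19, so TR-TFH cells were low in most of these genes too. *Ccr9*, the receptor for the small intestinal chemokine CCL25, stood at 0.585, 0.218, 0.248 and 0.205 in the 4 sets against 3.47, 3.52, 5.85 and 3.35 in the other cells. It was found in 12.3%, 4.02% and 4.18% of GC-TFH cells and in 47.7%, 61.2% and 58.4% of cells outside both TFH clusters, and TR-TFH cells were as low as GC-TFH cells (levels 0.337, 0.223 and 0.343). The integrin chains that bind mucosal addressin were lower, *Itgb7* by 3.27-fold, 2.09-fold and 2.08-fold and *Itga4* by 3.19-fold, 2.13-fold and 2.99-fold, and *Itga4* was lower than in TR-TFH cells as well (2.66-fold, 2.09-fold and 2.59-fold). *Rgs1*, a marker of tissue-resident T cells that dampens chemokine receptors, was lower by 6.88-fold, 4.05-fold and 4.72-fold, and *Lztfl1*, *Crip1*, *Vim*, *Itgae* and *Ccr2* were lower too. *Itgb7*, *Rgs1* and these 5 genes were not called against TR-TFH cells. *Cxcr6*, which holds T cells at mucosal surfaces, was between the groups, with ratios of 0.440, 0.237 and 0.225 to all other cells and of 1.92, 1.80 and 2.04 to TR-TFH cells.

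Genes that follow T cell receptor signals were higher for 7 of 15 and lower for 1 against all other cells, and higher for 11 of 15 against TR-TFH cells. *Egr2* and *Egr3*, factors induced through NFAT, stood at 1.03, 0.713, 0.952 and 0.840 against 0.130, 0.245, 0.247 and 0.230 and at 2.05, 1.15, 0.786 and 0.579 against 0.216, 0.225, 0.103 and 0.160 in the 4 sets. Both genes were called higher in all 4 sets, as were 184 of 7490 genes (2.46%). *Tnfrsf9*, the costimulatory receptor 4-1BB, had ratios of 6.85, 6.09 and 8.88, *Nfkbid*, a regulator of NF-κB, 1.74, 3.81 and 4.96, and *Myc* 2.39, 1.65 and 3.83. *Dusp5*, a phosphatase that acts on ERK, was lower (0.205, 0.379 and 0.410), but not in the smaller TGFβR-WT set (1.06), and *Egr1* (2.10, 1.64 and 2.05) fell short of 1.5 in the larger set (1.45). *Nr4a1* differed between conditions in its ratio to all other cells, with 0.328 in TGFβR-KO and 4.90 and 7.49 in TGFβR-WT and TGFβR-CA, since other cells of TGFβR-KO had a level of 2.25 against 0.249 and 0.157. Of the inhibitory receptors, 4 of 6 tested were higher, *Pdcd1*, *Cd200*, *Tigit* and *Cd160* among the genes listed there, the last with 2.94, 3.47 and 6.61. *Lag3* and *Ctla4* were higher against TR-TFH cells only (2.86, 1.67 and 1.69, and 2.79, 1.86 and 1.62).

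Other groups of genes gave fewer calls or calls of both kinds. Of 8 tested genes of TGFβ feedback, *Smad7*, the inhibitory SMAD (ratios 0.255, 0.487 and 0.278), and *Itgae* were lower, and *Skil*, *Tgfb1* and *Tgif1* were higher than in TR-TFH cells. Of 17 cytokine receptor chains, 4 were higher and 3 lower, with *Il1r2* at 2.73, 2.66 and 2.37 and *Il18r1*, a receptor for IL-18, lower by 4.49-fold, 4.93-fold and 5.12-fold. *Tpi1* was the only one called of 14 glycolysis genes (3.63, 2.06 and 2.52), while *Hk2* and *Ldha* were higher than in TR-TFH cells. Proliferation genes were lower for 7 of 16, among them *Mki67*, *Birc5* and *Stmn1*, and 3 of the 7 changed sign once the cells of the cycling cluster were left out of the comparison, *Pclaf* (mean log2 ratio 0.91), *Rrm2* (0.35) and *Stmn1* (0.27). Of 19 genes induced by dissociation and stress, 7 were lower and 1 higher. *Hspa1a*, a heat shock protein, was lower by 9.23-fold, 2.80-fold and 2.18-fold and *Klf6* by 7.31-fold, 4.03-fold and 4.08-fold, and the summed level of the listed stress genes was 56.7, 67.2 and 64.1 against 120.9, 90.0 and 77.2 in all other cells and 50.1, 56.5 and 47.1 in TR-TFH cells. The part of these stress genes in the ratios above was not tested.

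Beyond the lists, the 25 genes with the highest ratios held in all 4 sets for all but *Susd2*, whose ratio was 1.10 in the smaller TGFβR-WT set. *Cxxc5*, a CXXC zinc finger protein, stood at 0.852, 0.817 and 0.803, at ratios of 22.4, 22.1 and 13.3. *Cebpa*, a factor best known from myeloid cells and liver, had 0.852, 1.30 and 1.36 (26.5, 8.58 and 6.36). *Hivep3*, a zinc finger protein that binds κB motifs, followed with ratios of 9.95, 6.85 and 4.67, *Cd83*, an activation marker, with 5.92, 7.26 and 3.20, and *Pdcd1lg2*, which encodes the PD-1 ligand PD-L2, with 3.84, 5.47 and 4.08. Among the 15 genes with the lowest ratios, all lower in all 4 sets, were *Fgl2*, a fibrinogen-like protein (7.57-fold, 13.7-fold and 16.7-fold lower), *Actn2*, an actin crosslinker (7.33-fold, 8.98-fold and 29.9-fold), *Serpinb1a*, a protease inhibitor (5.68-fold, 6.23-fold and 23.9-fold), and *Hlf*, a bZIP factor (12.1-fold, 6.80-fold and 4.09-fold). *Actn2*, *Serpinb1a* and *Hlf* were not called against TR-TFH cells, and *Fgl2* was higher than there (4.70, 3.33 and 6.12 times). Some of these folds rest on few UMIs in GC-TFH cells, 3 per condition for *Fgl2* and, in TGFβR-CA, 2 for *Actn2* and 3 for *Serpinb1a*.

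The level was highest in GC-TFH cells of all clusters with at least 20 cells, in each of the 3 conditions, for 402 of 7490 genes (5.37%). The margin over the next cluster was at least 1.5 times in all 3 conditions for 46 of them and under 1.2 times in at least 1 condition for 277. *Cebpa* was 6.32, 5.25 and 4.80 times above the next cluster, *Ascl2* 4.3, 14.6 and 4.89 times, *Cxxc5* 7.15, 13.5 and 3.66 times and *Sostdc1* 9.27, 6.82 and 3.48 times. *Pdcd1* (5.46, 3.68 and 3.1), *Bcl6* (3.31, 3.26 and 2.62), *Egr2* (3.71, 2.70 and 3.19), *Zfpm1*, which encodes the GATA cofactor FOG-1 (2.60, 2.70 and 2.67), and *Il21* (2.40, 2.27 and 2.37) were also among the 15 with the largest margin. The clusters left out as too small were CTL (13 cells) and Tumorigenic (5 cells) in TGFβR-WT and CTL (3), Cycling (9) and Tumorigenic (2) in TGFβR-CA.

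Among markers of other cell types, those of B cells stood higher in GC-TFH cells as a sum. Of 22 B cell genes listed, 18 were in the table, and their summed level was 3.90, 8.25 and 3.53 in GC-TFH cells against 0.812, 1.64 and 1.5 in all other cells. Most of it was *Ighm*, the heavy chain of IgM, which was found in 30.5%, 42.2% and 46.0% of GC-TFH cells, 23.5%, 25.2% and 36.2% of TR-TFH cells and 2.39%, 6.32% and 12.9% of the remaining cells. Without *Ighm* the sum was 1.27, 3.70 and 0.588 against 0.493, 0.592 and 0.214, with 5.44 in the larger TGFβR-WT set and 0.0414, from 1 UMI, in the smaller set. TR-TFH cells had 1.21, 0.790 and 0.229 without *Ighm*, so in TGFβR-KO this sum was not particular to GC-TFH cells. *Igkc*, the most common light chain, had 1 UMI in all GC-TFH cells, and *Cd79a*, part of the B cell receptor, was found in 2, 3 and 0 of them. Plasma cell genes summed to 4.21, 1.77 and 5.39 against 1.51, 1.34 and 0.988, and 0 of 3 tested were called. Any plasma cell gene had a UMI in 37.1%, 41.7% and 46.8% of GC-TFH cells. *Jchain* was concentrated in single cells, with 205 of 246 UMIs in 1 cell of TGFβR-KO and 276 of 280 in 1 cell of TGFβR-CA. CD8 T cell, γδ T cell and epithelial genes were near 0, at summed levels of 0.0134 to 0.0244, 0.0244 to 0.0402 and 0.179 to 0.252, with no UMI of *Cd8a*, *Krt8* or *Krt19*. Myeloid genes (7 of 12 listed were in the table) summed to 1.70, 1.75 and 2.14 against 1.93, 2.10 and 1.83. *Foxp3*, which defines regulatory T cells, was found in 2, 1 and 0 GC-TFH cells, while *Ikzf2*, also used by regulatory T cells, was higher (3.25, 2.02 and 1.70, but 1.29 in the smaller TGFβR-WT set).

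The GC-TFH cells were not uniform. Detection of *Pdcd1* and *Tnfrsf4* parted them into 4 classes, a division chosen after the values were seen, in which 124, 74 and 106 cells had *Pdcd1* alone, 85, 39 and 35 had *Tnfrsf4* alone, 52, 56 and 97 had both and 57, 30 and 25 had neither. *Tnfrsf4* alone was 26.7% of GC-TFH cells in TGFβR-KO, 19.6% among those of TGFβR-WT and 13.3% in TGFβR-CA, and both together 16.4%, 28.1% and 36.9%. Cells with *Tnfrsf4* alone had more corrected UMIs and genes, with medians of 4239, 4067 and 4345 corrected UMIs and 1759, 1836 and 1769 genes against 3520.5, 3623.5 and 3947.5 UMIs and 1448, 1540.5 and 1633 genes with *Pdcd1* alone. The part of this difference in the comparison was not tested, and a missing UMI does not show that a gene was silent.

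Between these classes 411 of 7490 genes (5.49%) were at least 1.5 times higher with *Tnfrsf4* alone and 335 (4.47%) with *Pdcd1* alone, in all 3 conditions. Higher with *Tnfrsf4* alone were 7 of 12 tested TH17 identity genes, 10 of 14 antagonists of TFH differentiation and 5 of 15 genes of T cell receptor signals, with 0 of each higher with *Pdcd1* alone. *Il22* had a level of 10.0, 3.47 and 0.887 there against 0.217, 0.185 and 0.0238, *Irf4* of 2.30, 2.89 and 2.18 against 0.346, 0.148 and 0.167, and *Il2ra*, the high-affinity chain of the IL-2 receptor, of 1.78, 1.16 and 0.614 against 0.260, 0.0370 and 0. In TGFβR-WT the ratio of *Il22* between the classes was 3.72 in the larger set and 48.2 in the smaller. Among the antagonists counted, *Klf2* went the other way in the larger set (0.531) and *Il7r* in the smaller (0.684). *Egr2*, a gene of T cell receptor signals, was 1.66, 1.49 and 2.17 times higher with *Pdcd1* alone and so was not called. *Il17f* (8.06, 1.41 and 3.96 against 0.130, 0.148 and 0) was on the side of *Tnfrsf4* alone too. As given above, a single GC-TFH cell held most UMIs of *Il22* in TGFβR-WT and another those of *Il17f* in TGFβR-KO. The levels here include such cells. Also higher with *Tnfrsf4* alone were *Hk2*, the first enzyme of glycolysis (8.48, 8.68 and 30.0 times), *Fabp5*, a fatty acid carrier (19.5, 2.69 and 18.6), *Furin*, a protease that matures TGFβ (4.50, 7.81 and 5.49), *Npm1*, a nucleolar protein (2.64, 2.37 and 1.83), *Tnfsf8* (2.08, 1.67 and 1.52) and *Batf* (1.60, 1.58 and 4.08).

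Of TFH genes, 2 of 13 receptors (*Pdcd1* and *Tnfrsf4* left out), 4 of 15 transcription factors, 3 of 7 helper signals and 8 of 14 adaptors were higher with *Pdcd1* alone, against 0, 2, 1 and 0 with *Tnfrsf4* alone. *Sostdc1* had a level of 3.79, 9.69 and 6.22 with *Pdcd1* alone against 0.662, 1.86 and 0.683 with *Tnfrsf4* alone, *Ascl2* of 1.15, 0.703 and 0.668 against 0.115, 0 and 0, and *S1pr2* of 0.736, 0.629 and 1.12 against 0.201, 0.257 and 0.0683. *Cxcr5* was 5.77, 1.88 and 2.15 times higher, *Il4* 3.44, 9.80 and 2.33 times, *Cd27*, a costimulatory receptor, 4.85, 3.86 and 3.66 times, *Tox2* 4.71, 2.52 and 2.43 times and *Ighm* 12.8, 6.45 and 6.29 times. *Il21*, *Maf* and *Icos* were not called between the classes, and *Bcl6* was 3.56 and 2.31 times higher with *Pdcd1* alone in TGFβR-KO and TGFβR-WT but 1.30 times in TGFβR-CA.

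**Figure D4:**
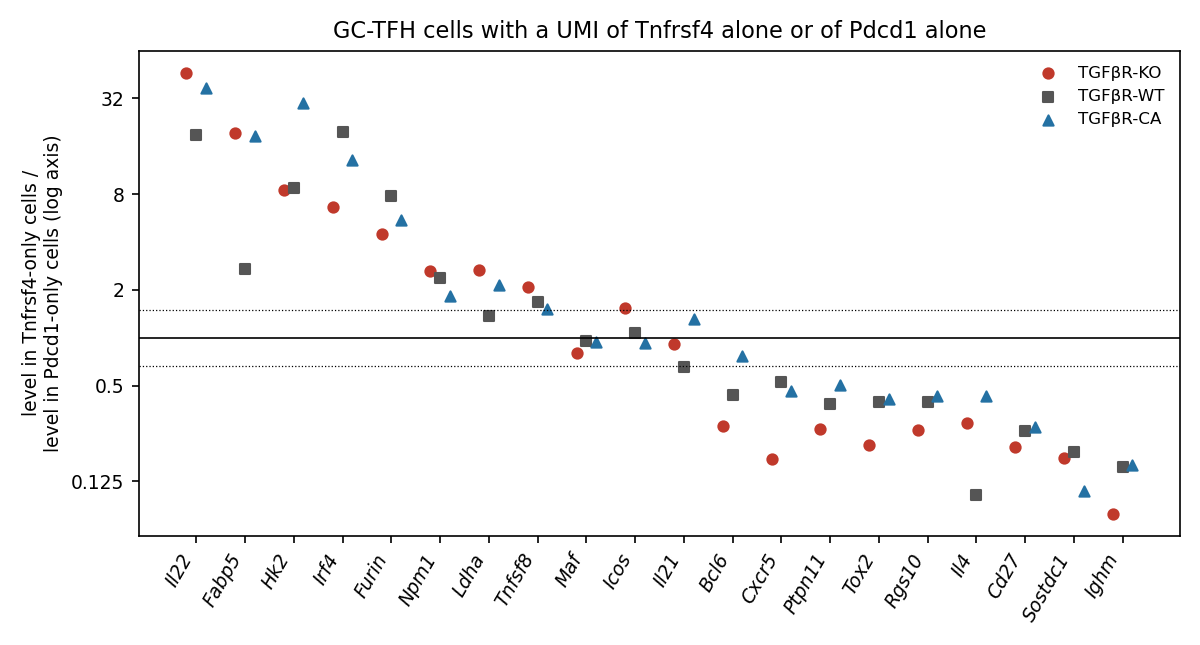
Ratio of the level in GC-TFH cells with a UMI of Tnfrsf4 and none of Pdcd1 to that in GC-TFH cells with Pdcd1 and no Tnfrsf4 (log axis) for 20 genes, with a point for each of the 3 conditions. Il22, with 18.7 to 46.2 times the level, lies on the Tnfrsf4 side and Ighm, with 6.29 to 12.8 times, on the Pdcd1 side, whereas Maf and Icos lie near equality. In TGFβR-WT a single cell held most UMIs of Il22, whose ratio was 3.72 in the larger set and 48.2 in the smaller.

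Within single GC-TFH cells, *Cxcr5* and *Bcl6* were found together in 21.1%, 28.1% and 29.3%. *Bcl6* was found in 53.6%, 56.6% and 52.0% of the GC-TFH cells with *Cxcr5* and in 32.1%, 36.0% and 36.5% of those without. *Il21* or *Il4* was found in 40.6%, 45.7% and 44.5%, and both in 4.09%, 6.03% and 6.46%. *Il4* was found in 11.9%, 14.5% and 17% of the cells with *Il21* and in 9.57%, 6.90% and 10.4% of those without. These shares move with the depth of a cell and are descriptions of the cells of each pool.

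GC-TFH cells were also set side by side across conditions, where a gene was called when the ratio was at least 1.5 in the same direction against both TGFβR-WT sets. By this rule 297 genes (3.97%) were higher and 449 (5.99%) lower in TGFβR-KO, and 269 (3.59%) higher and 399 (5.33%) lower in TGFβR-CA. GC-TFH cells of the 2 TGFβR-WT sets, set against each other, passed the same size at more genes, with 1603 (21.4%) higher in the larger set and 1357 (18.1%) in the smaller. That comparison asks for a single ratio, whereas the calls above ask for it against both sets. Against the larger set alone, 676 were higher and 1080 lower in TGFβR-KO, and 816 and 1143 in TGFβR-CA. Against the smaller set alone these were 1424 and 1627, and 1332 and 1332. There are no replicates of TGFβR-KO or TGFβR-CA, and library cannot be told apart from condition. *Xist*, as given above, parted the 2 TGFβR-WT sets, with none in TGFβR-KO and the larger set. The 2 comparisons also share the TGFβR-WT cells, so the values below describe the libraries.

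In GC-TFH cells of TGFβR-KO, 3 of 8 tested genes of TGFβ feedback and several TFH genes stood lower, and in TGFβR-CA 2 of the 8, *Smad7* and *Itgae*, were lower as well. *Pmepa1*, an inhibitor of TGFβ signals that TGFβ induces, had a level of 0.146 in TGFβR-KO, 1.56 and 1.12 in the larger and smaller TGFβR-WT sets and 0.765 in TGFβR-CA. *Skil*, which encodes the SMAD corepressor SnoN, had 0.373, 1.31, 2.07 and 1.48, and *Smad7* 0.162, 0.515, 0.538 and 0.271. TGFβR-KO was the lowest of the 4 sets for each. Of the TFH lists, 2 of 15 receptors, 3 of 7 helper signals and 4 of 14 adaptors were lower in TGFβR-KO and none higher, and no transcription factor was called. *Icos* stood at 3.91, 7.88, 8.15 and 7.69, *Sostdc1* at 2.40, 4.91, 5.88 and 5.79, *Tbc1d4* at 4.34, 9.46, 10.0 and 10.4 and *Rgs10* at 5.63, 11.1, 15.8 and 15.1. For these genes TGFβR-CA lay between the TGFβR-WT sets or within 1.5 times of both.

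*Cxcr5* was lower in TGFβR-KO as well, at 1.64 against 2.49 and 2.90, with 2.40 in TGFβR-CA. Other genes of the program were not called in either comparison. *Bcl6* stood at 1.85, 2.59, 1.45 and 1.89 in the 4 sets, *Pdcd1* at 4.42, 4.57, 5.67 and 6.95, *Il21* at 1.57, 2.77, 1.61 and 2.16 and *Maf* at 18.7, 27.2, 22.8 and 26.3. TGFβR-KO lay inside the range of the other sets for *Bcl6*, and was lowest of the 4 for the others, by under 1.5 times against at least 1 of the TGFβR-WT sets. TR-TFH cells of the same libraries showed *Icos* at 1.98, 4.33, 6.43 and 5.15, *Tbc1d4* at 2.50, 6.62, 5.27 and 6.37 and *Rgs10* at 4.83, 10.0, 12.9 and 12.0, so these lower levels were not particular to GC-TFH cells. *Skil* (0.207, 0.659, 1.03 and 0.746) and *Pmepa1* (0.145, 0.499, 0.991 and 0.448) were lowest in TGFβR-KO there too.

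Of TH17 identity, gut homing and TFH antagonist genes, 4 of 12, 7 of 14 and 5 of 14 tested were higher in GC-TFH cells of TGFβR-KO, against 297 of 7490 genes (3.97%). *Cxcr6* stood at 2.74, 0.752, 0.704 and 0.345 in the 4 sets, *Id2* at 4.77, 2.51, 1.99 and 1.06, and *Ly6a*, which encodes the surface protein Sca-1, at 5.71, 1.05, 0.621 and 0.280. TGFβR-KO was the highest and TGFβR-CA the lowest set for each of the 3 genes. As given above, the ratio of *Cxcr6* to TR-TFH cells was similar in every condition. TR-TFH cells thus had the same order of conditions for *Cxcr6*, which was not particular to GC-TFH cells. Neither *Id2* nor *Ly6a* was called between GC-TFH and TR-TFH cells. The calcium-binding protein gene *S100a6* stood at 4.75, 1.39, 1.32 and 2.92, and *Hk2* at 0.901, 0.297, 0.0414 and 0.299. *Il17a* (1.59, 0.535, 0.124 and 0.616) and *Il17f* (2.37, 0.634, 0.497 and 0.747) were called too, and without the cell with most UMIs the level in TGFβR-KO was 0.961 and 0.977, still 1.80 and 1.54 times that of the larger set. *Egr3* and *Cd160* were called only through 1 cell each, since without it TGFβR-KO was 1.49 and 1.34 times the larger set.

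In GC-TFH cells of TGFβR-CA, TH17 identity genes stood lower for 5 of 12 tested and higher for 0, against 399 of 7490 genes lower (5.33%). *Rora* had a level of 0.933 against 1.96 and 1.61 in the larger and smaller TGFβR-WT sets, *Tmem176b* of 1.26 against 2.38 and 2.15, and *Il7r* of 0.336 against 0.574 and 1.32. *Tcf7*, which encodes TCF-1, a factor of TFH and memory cells, was higher, at 2.44 against 1.54 and 1.45. *Ccl20*, the chemokine for CCR6, was higher as well, at 1.61 against 0.337 and 0.248, and 2.39 and 3.25 times so without the cell with most UMIs, which held 87 of 173, but these UMIs came from 7 of 263 cells.

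**Figure D5:**
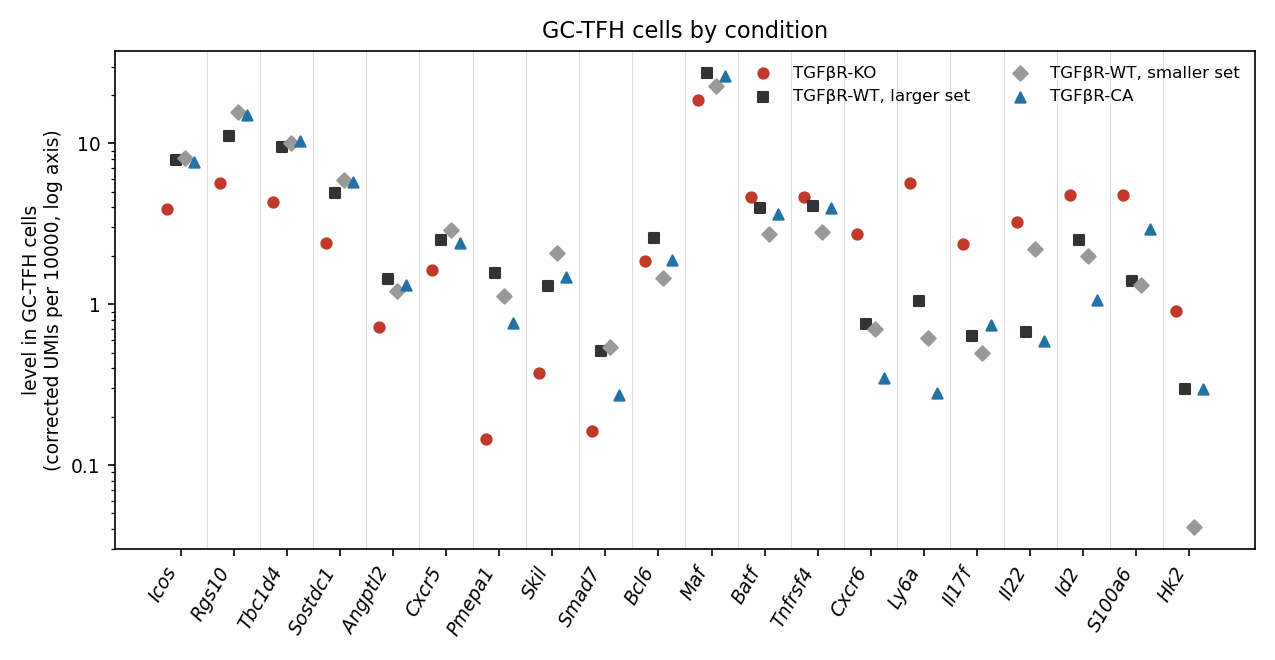
Level in GC-TFH cells (corrected UMIs per 10000, log axis) of 20 genes, with 1 point for each of TGFβR-KO, larger TGFβR-WT set, smaller TGFβR-WT set and TGFβR-CA. TGFβR-KO is the lowest point for Icos, Rgs10, Tbc1d4, Sostdc1, Pmepa1 and Skil and the highest for Cxcr6, Ly6a and Id2, while for Bcl6, Maf and Batf no difference was called.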

How the data were processed

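The scRNA-seq table of the whole series was analysed. It is deposited as natural log values, for which the authors took SCTransform-corrected UMIs and added 1. SCTransform brings cells to a common depth, so they are not raw counts and the original depth of a cell is not known. The submitters' processing notes name Cell Ranger 3.1.0, Seurat and mm10. The authors filtered cells, integrated the conditions, named the clusters and took out epithelial and γδ T cells, and these cluster names were used as deposited. Once expm1 was applied, the 7880276 non-zero values, over 13265 genes and 5080 cells were all whole within 1e-06, with a largest value of 676. Conditions come from the names of the cells (R:, WT: and RCA:), with R: read as TGFβR-KO.

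Levels were computed as corrected UMIs per 10000, summed over cells. Genes with at least 200 corrected UMIs over the table (7490) were compared by ratio, and a difference was called at a ratio of 1.5 in the same direction in all 3 conditions, without a test. Genes named are members of the lists, the 25 with the highest and the 15 with the lowest ratio to all other cells by the condition nearest to no difference, the 10 each way against TR-TFH cells, and the 15 with the largest margin over the next cluster. The members and lists were chosen with earlier results of these data known. The division by *Pdcd1* and *Tnfrsf4*, detection of 2 genes in 1 cell, the comparison between conditions, calls in 4 sets, values without the highest cell, and the genes *Tgfbr1*, *Xist*, *Fabp5*, *Furin*, *Npm1* and *Cd27* were added after seeing the data. Shares have exact Clopper-Pearson 95% intervals for counting error only. Alternatives changed the threshold, filter, pseudocount, scaling, the weight of the other clusters and the cells included.

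Scrublet in scanpy 1.11.5, run by set, called 43 of 5080 cells doublets (0.846%), 12 of them GC-TFH cells. It called 0.134% in TGFβR-KO and 0.141% in the larger TGFβR-WT set and so did not work there, and 6.71% and 1.64% in the smaller set and TGFβR-CA. On simulated data with 200 of 7490 genes changed in GC-TFH cells against all other cells, 44 of 50 genes raised 2-fold, 34 of 50 lowered 2-fold, and 50 of 50 in each direction at 4-fold were called, with 2 of 7290 unchanged genes. The simulated sums were Poisson draws from the same profile in both groups, without spread between cells or a change in cluster mix. The 2 of 7290 therefore does not give the rate of such calls in the data. Gene coordinates are from the GENCODE M21 annotation of GRCm38 (mm10) and were looked up by gene symbol. Python 3.11.15, numpy 2.4.6, scipy 1.17.1, pandas 2.3.3 and matplotlib 3.10.9 were used. The TCR and scATAC-seq data of the study were not analysed here.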

Additional observations from a re-analysis of the deposited data

Results flagged for a closer look

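Among listed and named genes with a UMI in every group, the ratio of GC-TFH cells to all other cells was at least 1.5 times higher in 1 condition and as much lower in another for the genes below, and the difference was not tested. *Areg* had a ratio of 0.497 in TGFβR-KO and 5.43 in TGFβR-WT, and *Ccl20* had 0.334 in TGFβR-WT and 6.68 in TGFβR-CA, where 7 cells held its UMIs. *Il2ra* had a ratio of 1.77 in TGFβR-KO and 0.407 in TGFβR-CA. *Nr4a1* had 0.328 in TGFβR-KO and 7.49 in TGFβR-CA. *Nfkbia*, an inhibitor of NF-κB, had 0.634 in TGFβR-KO and 1.54 in TGFβR-WT, and *Tgif1*, a SMAD corepressor, had 0.637 in TGFβR-KO and 2.01 in TGFβR-WT. *Jchain*, the joining chain of secreted antibodies, had 0.221 in TGFβR-WT and 96.1 in TGFβR-CA, where 276 of 280 UMIs came from 1 GC-TFH cell.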

How the results depend on the processing

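No paired analysis was possible because replicate numbers are given for TGFβR-WT alone, whose cells cannot be assigned to them or to a batch by the labels, and no test was made. Counts of genes higher and lower than in all other cells (287 and 255) became 80 and 120 at a ratio of 2, 438 and 394 at 50 UMIs or more, 531 and 493 without a filter, and 163 and 161 with 0.1 per 10000 added. Against TR-TFH cells (454 and 111) they became 146 and 29 at a ratio of 2, 753 and 217 without a filter and 267 and 55 with 0.1 added. Genes lower than in TR-TFH cells were 171 at 50 UMIs or more, 172 without ribosomal and mitochondrial genes in the total and 62 by share of cells, by which 23 in place of 39 listed genes were lower. Genes highest in GC-TFH cells were 745 without cycling cells and 215 with clusters of at least 5 cells (402 as reported). Among genes called against all other cells, 53.0% were higher, and 40.0% at a ratio of 2. Without the smaller TGFβR-WT set 276 were higher and 245 lower, and without the larger 267 and 244. Of listed and named genes, *Pclaf* (0.91), *Rrm2* (0.35) and *Stmn1* (0.27) reversed without cycling cells, as mean log2 ratios, since those cells are then no longer among the others. Another 208 values of single genes moved, most of them by share of cells (68 of 207 genes), with other clusters weighted equally (60) and with 0.1 added (35).

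The alternatives for comparisons added after seeing the data moved counts in the same way. For genes higher and lower in TGFβR-KO (297 and 449) they gave 121 and 121 at a ratio of 2, 669 and 778 at 50 UMIs or more, 137 and 219 with 0.1 added, 551 and 1063 with the TGFβR-WT sets pooled, 676 and 1080 without the smaller set and 1424 and 1627 without the larger. For TGFβR-CA (269 and 399) these were 98 and 130, 646 and 634, 132 and 189, 576 and 1002, 816 and 1143, and 1332 and 1332, so the counts between conditions depend on which TGFβR-WT set is used. For genes higher with *Tnfrsf4* alone and with *Pdcd1* alone (411 and 335), a ratio of 2 gave 148 and 123, adding 0.1 gave 272 and 208, and 50 UMIs or more gave 536 with *Pdcd1* alone. The other 114 values for counts and shares stayed within 1.5 times or within their interval.

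The smaller TGFβR-WT set held 58 GC-TFH cells, several cytokine genes rested on single cells, and corrected UMIs do not carry the original depth. Differences between mice within a pool could not be measured.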
